A study of Mus musculus with 6 samples.

Results

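Transcripts of 35 genes for glucose uptake, glycolysis, glycogen turnover and lactate transport were measured by RNA sequencing in the apex of the mouse heart. The genes were listed by name for steps of the pathway, with earlier results of these data known, so the list is not independent of the data. All 35 were found by symbol among the 37620 genes of the deposited table. The 6 libraries came from wild-type C57/BL6J mice that had all undergone 30 min of myocardial ischaemia, in which blood flow is interrupted, and 120 min of reperfusion, with 3 libraries in each of 2 groups. The vehicle group had received the vehicles of both yohimbine, an alpha-2 adrenergic antagonist, and dexmedetomidine, a sedative alpha-2 adrenergic agonist, before surgery. The dexmedetomidine group had received the yohimbine vehicle and, 30 min later, dexmedetomidine at 10 µg/kg, with surgery 20 min after the drug. Each infusion ran through the tail vein within 10 min. The labels give these intervals for the dexmedetomidine group alone, and they do not give the age of the mice or say whether each library is a separate animal. P-values therefore measure the spread between these libraries, which may be technical.

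Glucose enters heart muscle cells through the transporters GLUT4, which insulin and contraction bring to the surface, and GLUT1. Hexokinase traps it as glucose 6-phosphate, which either runs through glycolysis to pyruvate or is stored as glycogen. Phosphofructokinase is the committed step of glycolysis and is stimulated by fructose 2,6-bisphosphate, which the PFKFB enzymes make and degrade. In ischaemia the heart relies on glycogen and glycolysis, and pyruvate leaves as lactate through proton-coupled monocarboxylate transporters, while the reperfused heart returns mainly to fatty acids. Several steps have a muscle isozyme and a more widely expressed one.

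Most of the listed transcripts were lower after dexmedetomidine, by modest amounts. Of the 34 genes that passed the filter on low counts, 25 had a log2 fold change below 0 and 9 above 0, against 49.7% of all 14738 tested genes below 0. The median log2 fold change (dexmedetomidine minus vehicle) was -0.25 for the listed genes and 0.00321 for all tested genes. Slc16a3, the lactate exporter MCT4, was lowest relative to vehicle, and Fbp2, the muscle fructose bisphosphatase, was next. The 4 genes of the fructose 2,6-bisphosphate enzymes were all above 0. The glycogen branching and glucose-activating genes Gbe1 and Ugp2 were slightly higher. Each library's trends on GC and length were then removed (called the GC correction from here on). They were fitted without regard to group, so a group difference that followed GC or length would be removed too. With the correction the median of the listed genes was -0.078. That of all tested genes was 0.038. Of the 34, 24 were then below 0, against 44.1% of tested genes, and 7 had changed direction, Gbe1 and Ugp2 among them. The count of genes with all dexmedetomidine values below all vehicle values went from 13 to 5 of the 34, against 12.0% and 7.15% of all tested genes. Slc16a1 and Ugp2 were among the 5 but not among the 13. In edgeR's quasi-likelihood test no listed gene passed an adjusted p of 0.05, and the background was 0% of all tested genes.

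At an unadjusted p under 0.05, a description rather than a call, 13 of the 34 were lower and 1 was higher, against 9.03% lower and 12.5% higher of all tested genes. In 13 of the 34 all dexmedetomidine values lay below all vehicle values, against 12.0% of all tested genes, and in 3 they lay above, against 15.6%. The count of 13 at an unadjusted p moved with 1 library left out. So did the count over all tested genes, which was 1331 of 14738 with all 6 libraries. Without vehicle replicate 1, 2 or 3 the listed count was 11, 2 or 19, against 1059 of 15111, 780 of 15168 or 1758 of 15048. Without dexmedetomidine replicate 1, 2 or 3 it was 15, 4 or 2, against 1712 of 15094, 715 of 15156 or 615 of 15135. DESeq2 called 3 of the genes (Slc16a3 and Fbp2 lower, Pfkfb2 higher), against 9.43% of the 13224 genes to which it gave an adjusted p, so the share called in the list was near that of all genes. Limma-voom with quality weights called 8, of which 7 (Slc16a3, Fbp2, Hk1, Aldoa, Tpi1, Pgam2 and Eno3) were lower and Pfkfb2 was higher, against 5.20% lower and 8.79% higher. Without vehicle replicate 3 edgeR called Slc16a3 and Fbp2 lower, against 2.19% of genes called lower, and none of the list higher, against 6.13%.

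The libraries did not contribute evenly. Vehicle replicate 2 had the highest level of all 6 libraries for 24 of the 34 genes, and dexmedetomidine replicate 3 the lowest for 18. Within the dexmedetomidine group replicate 1 was highest for 18 genes. Without vehicle replicate 2 the median log2 fold change of the listed genes was -0.16, with 25 of 34 below 0.

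Each library held 42.7 to 56.6 M gene counts, and the smallest count of a tested gene of the list in any library was 202. Mitochondrially encoded transcripts took 22.01% to 25.2% of gene counts after vehicle. After dexmedetomidine they took 27.1%, 36.9% and 38.2% in replicates 1, 2 and 3, so replicate 1 lay nearest the vehicle libraries. The listed genes took 1.54% to 1.73% of gene counts after vehicle and 1.08% to 1.46% after dexmedetomidine. Of counts outside the mitochondrial genome they took 2.04% to 2.22% and 1.74% to 2.00%. Cardiomyocyte markers were abundant in every library, with a summed level of 57030 to 68180 CPM (counts scaled to a library of 1e6) after vehicle and 49840 to 56020 after dexmedetomidine, and 8 of 11 markers had a log2 fold change below 0. On the log2 CPM scale their mean was 12.04 ± 0.107 in the vehicle libraries and 11.86 ± 0.0669 in the dexmedetomidine libraries (SD, n = 3 each, exact two-sided permutation p = 0.1, the smallest that 3 against 3 libraries allow, adjusted over 12 marker lists 0.6). Fibroblast markers went the other way, at 6.19 ± 0.0977 and 6.46 ± 0.0553 log2 CPM (exact permutation p = 0.1, adjusted 0.6, n = 3 each). Of 10 skeletal muscle markers, which could bring in muscle isozymes, Myh4 and Tnnc2 were at 0 in every library and 8 were detected in at least 1. Their summed level was 141 to 389 CPM after vehicle and 178 to 224 CPM after dexmedetomidine, almost all of it Acta1, which heart muscle also expresses, at 138 to 387 CPM. No other marker of that list passed 1.14 CPM. The part of these shifts in the results was not tested, and in such bulk tissue fewer cells of a type and less RNA per cell cannot be told apart.

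**Figure D1:**
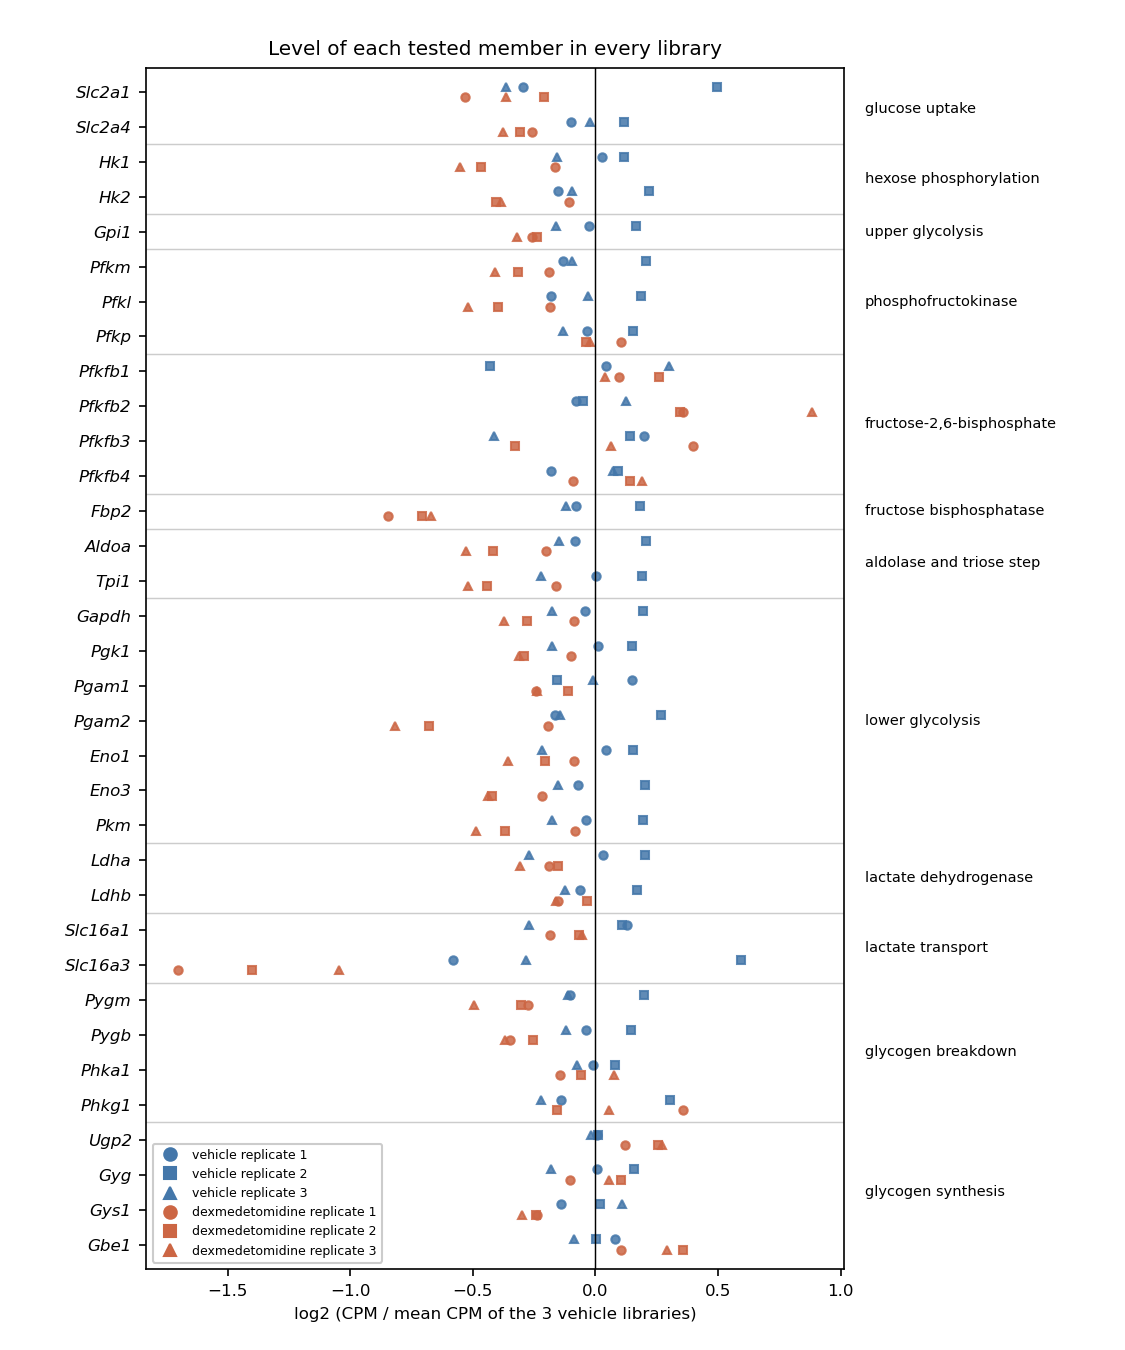
Level of each of the 34 tested genes in every library, as log2 of CPM over the mean of the 3 vehicle libraries, grouped by step; blue points are vehicle, orange dexmedetomidine, and shapes are replicate numbers. Most orange points lie left of 0, Slc16a3 and Fbp2 lie farthest left, Pfkfb2 lies right, and vehicle replicate 2 (blue squares) is the highest library for 24 genes.

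Slc2a4, which codes for GLUT4, was the more abundant of the listed glucose transporter transcripts. Per kilobase of gene length the vehicle libraries held it at 129.96 ± 9.99 CPM per kilobase (SD, n = 3), against 11.7 ± 4.17 for Slc2a1, which codes for GLUT1. In vehicle replicates 1, 2 and 3 Slc2a4 stood at 343, 399 and 362 CPM, and after dexmedetomidine, in the same order of replicates, at 308, 298 and 284 CPM, so the groups did not overlap. Its log2 fold change was -0.31 (SE 0.12, edgeR adjusted p = 0.166), and -0.081 with the GC correction, where the groups still did not overlap. Slc2a1 measured 27.2, 47.2 and 26.0 CPM after vehicle and 23.15, 28.9 and 25.9 CPM after dexmedetomidine. Vehicle replicate 2 alone stood high, and the log2 fold change of Slc2a1 went from -0.36 (SE 0.23) to -0.034 without it, and was -0.14 with the correction.

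Both hexokinase transcripts had a log2 fold change below 0. Hk1 codes for the widely expressed enzyme that sits on mitochondria, and Hk2 for the insulin-responsive muscle form. Hk1 measured 168, 179 and 148 CPM after vehicle and 147, 119 and 113 CPM after dexmedetomidine, with dexmedetomidine replicate 1 just under the lowest vehicle library. Its log2 fold change was -0.39 (SE 0.14, edgeR adjusted p = 0.161), and -0.19 with the correction. Hk2 measured 218, 282 and 227 CPM and 225, 183 and 185 CPM, and the groups overlapped (log2 fold change -0.29, SE 0.14, and -0.20 with the correction). Gpi1, the isomerase that makes fructose 6-phosphate, was at -0.27 (SE 0.12, edgeR adjusted p = 0.235) without overlap, from 335, 383 and 305 CPM to 285, 289 and 273 CPM, and at -0.14 with overlap after the correction.

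The phosphofructokinase isozymes are Pfkm, Pfkl and Pfkp. Pfkm, the muscle form and the main one per kilobase, measured 718, 907 and 736 CPM after vehicle and 691, 632 and 593 CPM after dexmedetomidine. Pfkl, the liver form, measured 86.2, 111 and 95.8 CPM and 85.9, 74.1 and 68.1 CPM, so its groups were separated by a very small gap. Their log2 fold changes were -0.30 (SE 0.13, edgeR adjusted p = 0.226) and -0.36 (SE 0.14, edgeR adjusted p = 0.177), and -0.068 and -0.048 with the correction. Pfkp, the platelet form, measured 62.0, 70.7 and 58.0 CPM and 68.2, 61.95 and 62.6 CPM (log2 fold change 0.016, SE 0.12, and -0.075 with the correction). The direction of Pfkp is not settled, since it was below 0 with the correction, without mitochondrially encoded genes and without several single libraries.

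Of the 9 listed genes above 0, 4 code for the fructose 2,6-bisphosphate enzymes, and only Pfkfb2 among these 4 had groups without overlap. Pfkfb2, the heart form, whose kinase is activated by phosphorylation under insulin and adrenaline, measured 52.5, 53.5 and 60.5 CPM after vehicle and 71.0, 70.5 and 102 CPM after dexmedetomidine. All 3 dexmedetomidine libraries were above vehicle, and replicate 3 was well above the other two. Its log2 fold change was 0.55 (SE 0.16, edgeR adjusted p = 0.115), 0.35 without dexmedetomidine replicate 3, and 0.29 with the correction, where the groups overlapped. That library also held the atrial transcripts Myl7 and Sln at 11.9 and 11.1 CPM, against at most 0.0195 CPM in the other 5 libraries, and Myl4 at 25.2 CPM, against at most 1.91. Of the other two atrial markers Nppa was not raised there, at 11.7 CPM against 6.75 to 30.1 CPM elsewhere, and Bmp10 was at 0 in every library. The part of these transcripts in the Pfkfb2 value was not tested. Pfkfb3, the inducible form with high kinase activity, ranged from 102 to 155 CPM after vehicle and from 108 to 179 CPM after dexmedetomidine (log2 fold change 0.076, SE 0.21, and -0.14 in limma-voom). Pfkfb1 and Pfkfb4 were scarce, between 5.56 and 9.22 CPM and between 4.32 and 5.57 CPM over all libraries, at 0.13 (SE 0.21) and 0.083 (SE 0.20) in log2. For Pfkfb1, Pfkfb3 and Pfkfb4 the groups overlapped, leaving out 1 library turned each value below 0, and the values with the correction were 0.00396, 0.10 and 0.32.

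Fbp2 catalyses the reverse of the phosphofructokinase step and is the muscle form of the enzyme. It measured 19.5, 23.4 and 19.0 CPM after vehicle and 11.5, 12.6 and 12.9 CPM after dexmedetomidine. The 2 groups were clearly apart and the dexmedetomidine libraries lay close together. Its log2 fold change was -0.74 (SE 0.15, edgeR adjusted p = 0.101), between -0.80 and -0.64 with 1 library left out, and -0.53 with the correction, still without overlap. DESeq2 called it with an adjusted p of 0.00200.

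Aldolase and triose phosphate isomerase transcripts were lower without a call in edgeR. Aldoa, the muscle aldolase that splits fructose 1,6-bisphosphate, measured 2073, 2534 and 1977 CPM after vehicle and 1908, 1645 and 1523 CPM after dexmedetomidine (log2 fold change -0.38, SE 0.14, edgeR adjusted p = 0.170). Tpi1, which interconverts the triose phosphates, measured 566, 644 and 484 CPM and 505, 416 and 394 CPM, with 1 dexmedetomidine library inside the vehicle range (log2 fold change -0.37, SE 0.15). With the correction the values were -0.057 for Aldoa and -0.15 for Tpi1. Aldoc, the brain aldolase, had at most 18 counts in any library, was 0 in 3 of the 6 and did not pass the filter.

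The 7 genes of the steps from glyceraldehyde 3-phosphate to pyruvate all had log2 fold changes below 0, but only 4 did with the correction, where Pgam1, Eno1 and Pkm were at 0.011, 0.092 and 0.050. The muscle isozymes were the more abundant transcripts of the mutase and enolase steps. Pgam2, the muscle phosphoglycerate mutase, measured 351, 472 and 356 CPM after vehicle and 343, 245 and 223 CPM after dexmedetomidine. Its log2 fold change was -0.54 (SE 0.19, edgeR adjusted p = 0.146) and -0.11 with the correction, and dexmedetomidine replicate 1 was close to the lower vehicle libraries. Eno3, the muscle enolase, measured 1015, 1226 and 959 CPM and 916, 795 and 788 CPM (log2 fold change -0.36, SE 0.13, edgeR adjusted p = 0.169). The groups did not overlap, and Eno3 was at -0.066 with the correction.

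Gapdh, often used as a reference gene, was the most abundant gene of the list, with 17.7% to 18.9% of its counts. It measured 2702.5, 3178 and 2459 CPM after vehicle and 2615, 2289 and 2145 CPM after dexmedetomidine, with overlap (log2 fold change -0.24, SE 0.14, edgeR adjusted p = 0.339). The value was -0.060 with the GC correction and -0.14 without vehicle replicate 2. Pkm, pyruvate kinase, measured 1008, 1185 and 915 CPM and 977, 802 and 739 CPM (log2 fold change -0.30, SE 0.15), and Pgk1, the first ATP-producing kinase of the pathway, was at -0.23 (SE 0.13) and -0.13 with the correction. The widely expressed isozymes Pgam1 and Eno1 were at -0.20 (SE 0.13) and -0.21 (SE 0.14) in log2, each with overlap between groups. Pgam1 lay between 19.6 and 25.6 CPM over all libraries and Eno1 between 103 and 147 CPM. Several of these genes, Gapdh, Pgk1, Pgam1, Eno1 and Ldha among them, have processed pseudogene copies, so reads that align at more than 1 place may be missing from their counts. Such alignments made up 28.0% to 31.4% of reads in the table after vehicle, and 31.2%, 39.5% and 39.4% in dexmedetomidine replicates 1, 2 and 3.

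Both lactate dehydrogenase transcripts overlapped between groups. Ldhb codes for the heart subunit, which favours lactate use, and Ldha for the muscle subunit. Ldhb measured 1223, 1439.9 and 1175 CPM after vehicle and 1151, 1249.6 and 1143 CPM after dexmedetomidine, a log2 fold change of -0.12 (SE 0.12, edgeR adjusted p = 0.626) that was 0.13 with the correction. Ldha measured 647, 729 and 525 CPM and 555, 569 and 512 CPM (log2 fold change -0.22, SE 0.14, edgeR adjusted p = 0.402, and -0.093 with the correction).

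Lactate transport held the gene with the lowest log2 fold change of the list. Slc16a3 codes for MCT4, the low-affinity exporter of glycolytic cells, and Slc16a1 for MCT1, the main transporter of heart muscle. Slc16a3 measured 9.15, 20.7 and 11.2 CPM after vehicle and 4.20, 5.18 and 6.63 CPM after dexmedetomidine, from 536, 1025 and 649 counts and 216, 202 and 258 counts. The groups did not overlap, and vehicle replicate 2 was the highest. Its level was 2.56-fold lower, a log2 fold change of -1.36 (SE 0.32, edgeR adjusted p = 0.103), and -0.94 without vehicle replicate 2. DESeq2 called it with an adjusted p of 0.000665, and with the GC correction it was at -1.05, still without overlap. Neutrophils and macrophages can express Slc16a3. Summed neutrophil markers were 64.2 to 124 CPM after vehicle and 47.97 to 190 CPM after dexmedetomidine, and summed macrophage markers 321 to 341 CPM and 276 to 375 CPM. All 6 neutrophil markers had a log2 fold change above 0 with overlap between groups. Of 7 macrophage markers 5 were below 0 and 2 above, and with the GC correction 2 were below 0. C1qa alone was without overlap, at 34.7, 44.3 and 48.6 CPM after vehicle and 33.4, 20.0 and 28.5 CPM after dexmedetomidine. Its log2 fold change was -0.64, and -0.16 with the correction. C1qb was at -0.0070, and Cd68 and Mrc1, the 2 above 0, were at 0.085 and 0.50. The part of these cells in the Slc16a3 value was not tested.

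Slc16a1 measured 262, 259 and 199 CPM after vehicle and 211, 228 and 230.4 CPM after dexmedetomidine, with overlap (log2 fold change -0.10, SE 0.14, edgeR adjusted p = 0.707). Its transcript is poor in GC, at 42.9%, and with the correction its log2 fold change was -0.47. The corrected groups did not overlap.

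**Figure D2:**
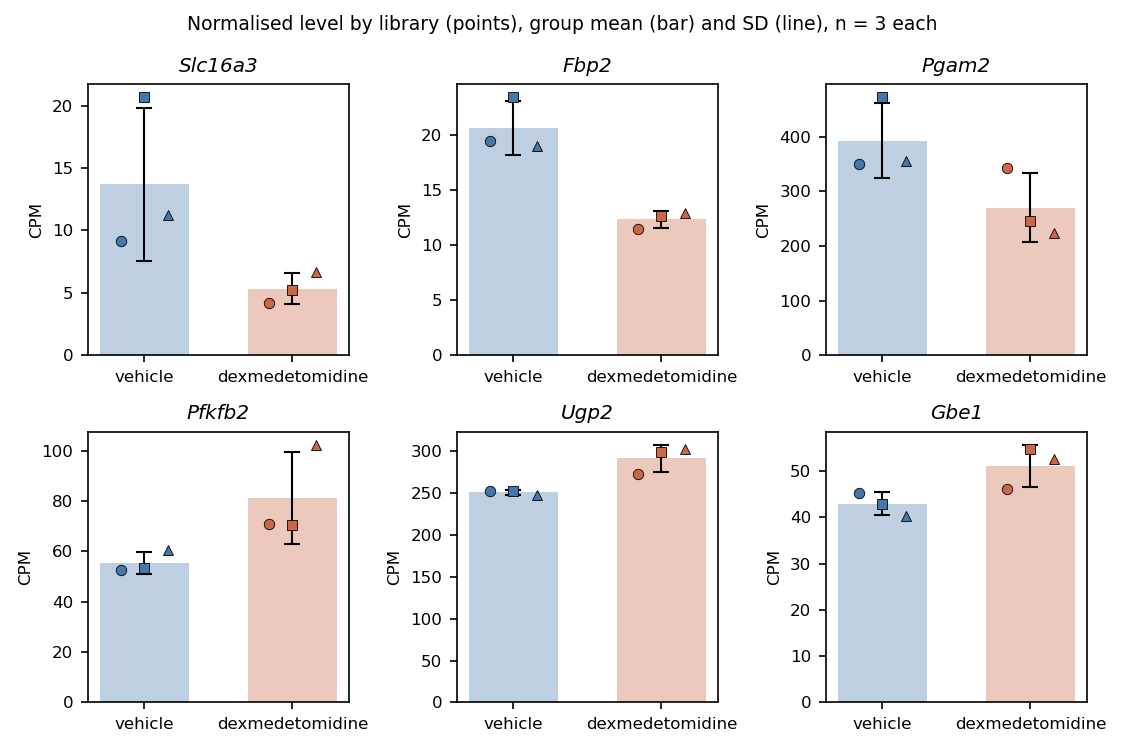
CPM of 6 genes in every library (points, with shapes for replicate numbers), with group means (bars) and SD (lines), n = 3 each. Slc16a3, Fbp2 and Pgam2 are lower after dexmedetomidine and Pfkfb2, Ugp2 and Gbe1 higher, none passing an adjusted p in edgeR, and the last 2 go the other way with the GC correction.

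Upstream sequence is shown for Slc16a3, Fbp2 and Pfkfb2, the genes of the list with the most negative and most positive log2 fold changes at an unadjusted p under 0.05. The 250 bases before the start site are from RefSeq on GRCm38.p6, at chr11:120948817-120949066 (plus strand), chr13:62858401-62858650 (minus strand) and chr1:130715822-130716071 (minus strand, the first listed of 3 start sites). The counts were made on mm9, so these positions are not joined to them. Capitals mark, on either strand, ACGTG and GCGTG (cores of hypoxia response elements), CACGTG (an E-box, which contains ACGTG on both strands), GGGCGG (a GC box) and TATAAA.
Slc16a3: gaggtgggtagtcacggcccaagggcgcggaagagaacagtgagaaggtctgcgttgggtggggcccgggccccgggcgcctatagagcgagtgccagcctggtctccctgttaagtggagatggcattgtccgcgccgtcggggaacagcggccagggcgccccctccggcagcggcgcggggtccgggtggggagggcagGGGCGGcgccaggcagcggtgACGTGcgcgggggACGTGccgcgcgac
Fbp2: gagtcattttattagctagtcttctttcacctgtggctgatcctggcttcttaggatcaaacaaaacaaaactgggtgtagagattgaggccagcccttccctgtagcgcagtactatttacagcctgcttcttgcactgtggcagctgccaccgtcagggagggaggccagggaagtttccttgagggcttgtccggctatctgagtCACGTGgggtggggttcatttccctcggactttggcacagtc
Pfkfb2: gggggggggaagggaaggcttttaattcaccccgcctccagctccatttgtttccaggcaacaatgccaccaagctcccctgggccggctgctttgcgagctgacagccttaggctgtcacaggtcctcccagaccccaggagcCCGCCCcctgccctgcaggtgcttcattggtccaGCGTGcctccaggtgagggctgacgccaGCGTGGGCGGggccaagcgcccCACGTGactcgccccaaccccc
Slc16a3 held 2 matches to ACGTG close to its start and 1 to GGGCGG. Fbp2 and Pfkfb2 each held 1 CACGTG, though their transcripts differed from vehicle in opposite directions. RefSeq gave 52 start sites for 34 of the 35 genes, and Slc2a4 had no entry. ACGTG was found in 20 of the 52 windows, against 16.6% of all 32851 windows of that length, GCGTG in 27 against 28.2%, CACGTG in 6 against 6.0%, GGGCGG in 25 against 32.7% and TATAAA in 1 against 12.4%. Start sites of the same gene count as separate windows. By gene, ACGTG was found in 16 of the 34, GCGTG in 22, CACGTG in 6, GGGCGG in 21 and TATAAA in 1. The windows were not matched to all others for GC content. A match describes letters and does not show that a factor binds.

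Glycogen phosphorylase transcripts, which code for the enzymes that release glucose 1-phosphate, were lower without a call in edgeR for both listed isozymes. Pygm, the muscle form, measured 951, 1173 and 945 CPM after vehicle and 846, 829 and 725 CPM after dexmedetomidine (log2 fold change -0.35, SE 0.13, edgeR adjusted p = 0.167). Pygb, the brain form, measured 823, 934 and 776 CPM and 664, 708 and 653 CPM (log2 fold change -0.32, SE 0.12, edgeR adjusted p = 0.163). Neither overlapped between groups, and both were at -0.11 with the correction, where the groups overlapped. The phosphorylase kinase subunit genes, which code for the activator of phosphorylase, had groups that overlapped. Phka1 was at -0.040 (SE 0.12) and -0.10 with the correction, between 35.2 and 41.1 CPM over all libraries, and Phkg1 at 0.10 (SE 0.19) and 0.19 with the correction, between 11.4 and 17.0 CPM.

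The 4 genes of glycogen synthesis had values on both sides of 0. Gys1, muscle glycogen synthase, measured 98.0, 109 and 116 CPM after vehicle and 91.6, 91.3 and 87.7 CPM after dexmedetomidine, without overlap (log2 fold change -0.26, SE 0.12, edgeR adjusted p = 0.230), and was at -0.011 with the correction. Ugp2, which makes the UDP-glucose that the synthase uses, measured 252, 253 and 248 CPM and 272, 299 and 302 CPM (log2 fold change 0.22, SE 0.11, edgeR adjusted p = 0.290). Gbe1, the branching enzyme, measured 45.3, 43.0 and 40.4 CPM and 46.1, 54.9 and 52.5 CPM (log2 fold change 0.25, SE 0.12, edgeR adjusted p = 0.254).

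Ugp2 and Gbe1 were thus above vehicle in 3 of 3 dexmedetomidine libraries before the correction. With it Ugp2 was at -0.48, with the dexmedetomidine values below all vehicle values, and Gbe1 at -0.17 with overlap. Gyg, glycogenin, which primes the glycogen particle, was at 0.020 (SE 0.13) and 0.082 with the correction, and its groups overlapped.

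The differences varied with the GC content of the transcripts. The listed genes are rich in GC, with a median of 52.9% in the longest transcript, and 21 of the 34 lay in the upper 2 of 5 equal bins of all tested genes. From the lowest to the highest bin, the median log2 fold change of all tested genes was 0.47, 0.15, -0.012, -0.15 and -0.30. When each library's trend on GC content and length was removed, the median of the listed genes was -0.078, and that of all tested genes 0.038. Then 24 of the 34 were below 0, against 44.1% of tested genes. At an unadjusted p under 0.05, 4 were lower (Fbp2, Slc16a3, Slc16a1 and Ugp2), against 5.53%, and 0 were higher, against 6.93%. The groups did not overlap for 5, which were these 4 and Slc2a4, all lower, against 7.15% of tested genes, and 0 were higher without overlap, against 11.2%. EdgeR called 0 genes with the correction, while 1785 of 14329 had an unadjusted p under 0.05.

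**Figure D3:**
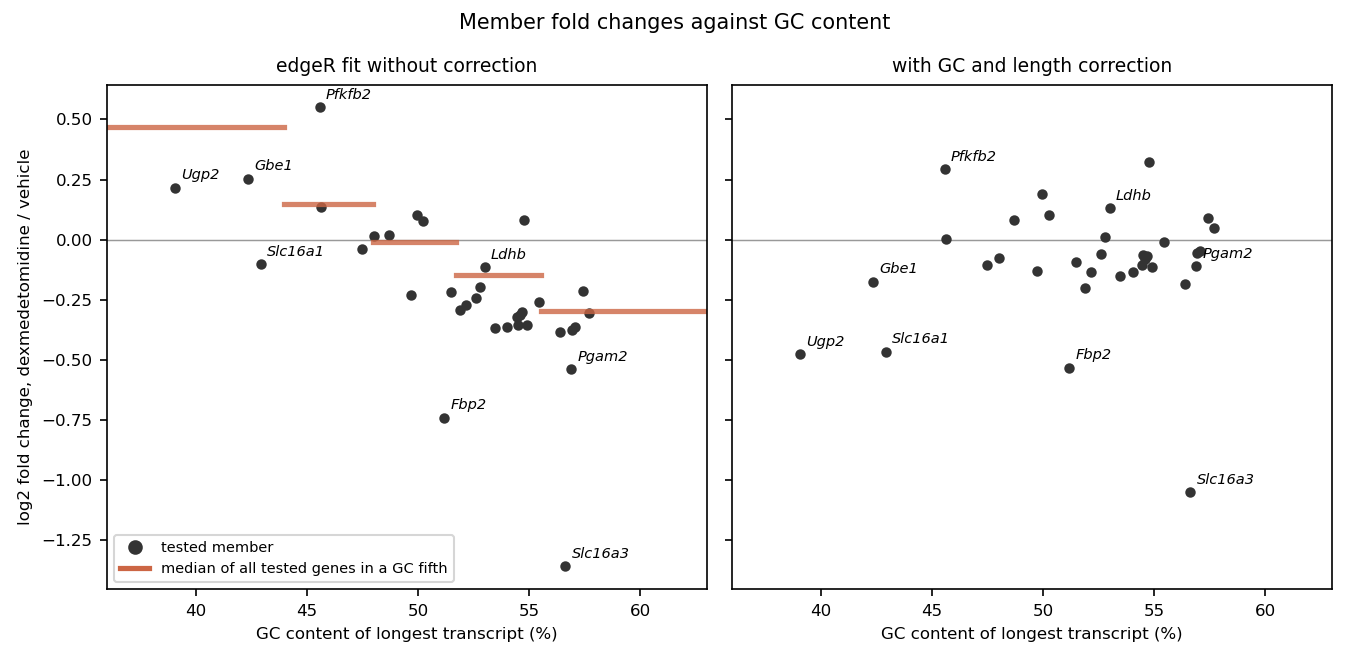
Log2 fold change of each tested gene of the list (points) against the GC content of its longest transcript, without (left) and with (right) the GC correction; orange lines are medians of all tested genes in 5 equal GC bins. On the left the bin medians step down from 0.47 to -0.30, and the points follow them loosely. The 3 points of the lowest bin lie below its median, Pfkfb2 lies highest at 0.55 and Slc16a3 lowest at -1.36. On the right Slc16a3, Fbp2, Ugp2 and Slc16a1 lie lowest.

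Ratios of one isozyme transcript to another within a library do not depend on library size. They show only whether a pair differed unequally. Of 10 pairs, Aldoc to Aldoa could not be formed because of zeros, and 9 were compared. Slc16a3 to Slc16a1, per kilobase, was 0.0291, 0.0665 and 0.0470 after vehicle and 0.0166, 0.0189 and 0.0239 after dexmedetomidine. All 3 dexmedetomidine ratios were lower, a difference of -1.20 in log2 (exact two-sided permutation p = 0.1, the smallest possible, adjusted over 9 pairs 0.45), and -0.57 with the correction (exact permutation p = 0.2). The ratio of Pfkp to Pfkm was 0.0281, 0.0253 and 0.0256 after vehicle and 0.0321, 0.0318 and 0.0343 after dexmedetomidine, higher in 3 of 3, a log2 difference of 0.32 (exact permutation p = 0.1, adjusted 0.45) that was -0.00581 with the correction.

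The other 7 ratios overlapped between groups. Ldha to Ldhb, the balance of the lactate dehydrogenase subunits, lay between 0.235 and 0.278 after vehicle and between 0.236 and 0.254 after dexmedetomidine. Hk2 to Hk1 lay between 1.86 and 2.25 and between 2.19 and 2.36. Pgam1 to Pgam2 lay between 0.0201 and 0.0336 and between 0.0261 and 0.0403. Slc2a1 to Slc2a4, Pfkl to Pfkm, Eno1 to Eno3 and Pygb to Pygm differed in mean log2 ratio by -0.00330, -0.065, 0.14 and 0.031 (exact permutation p = 1, 0.3, 0.2 and 0.8). With 3 libraries a group, no pair could pass 0.05.

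**Figure D4:**
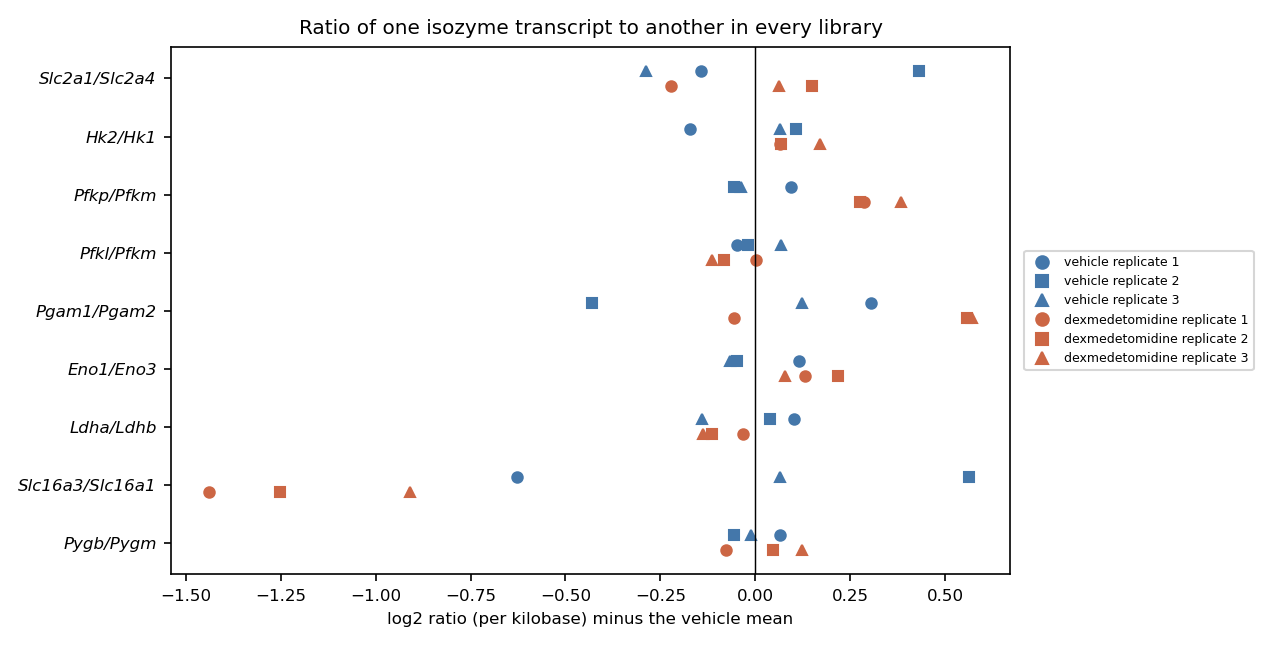
Log2 ratio of one isozyme transcript to another, per kilobase, in every library, minus the mean of the 3 vehicle libraries; blue points are vehicle, orange dexmedetomidine, and shapes are replicate numbers. The groups are separate for Slc16a3/Slc16a1 (difference -1.20) and Pfkp/Pfkm (0.32) and overlap for the other 7 pairs.

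A further 83 genes around the pathway, such as other transporters, pyruvate entry, glycogen regulators, side branches and transcription factors, showed no shared direction. Of 76 tested, 38 were lower and 38 higher, with a median log2 fold change of -0.00480. At an unadjusted p under 0.05, 9 were lower and 7 higher, against 9.03% and 12.5% of all tested genes, and none passed an adjusted p in edgeR. DESeq2 called 5 of the 75 to which it gave an adjusted p (Pgm2l1, Rpe, Ppargc1a and Ppp1r3c higher, and Myc lower), against 9.43% of all genes. Limma-voom called 8 of 76, of which 6 were higher and 2 lower, against 8.79% higher and 5.20% lower. None of the shares called by DESeq2 or limma-voom was above that of all genes. At an unadjusted p the share lower was slightly above that of all tested genes, and the share higher was below it. Myc, a transcription factor gene named here after its values were seen, was at -0.83 (SE 0.33), and between -1.13 and -0.35 with 1 library left out. It measured 56.2, 98.8 and 34.4 CPM after vehicle and 37.2, 35.3 and 34.0 CPM after dexmedetomidine, so the groups overlapped. The 8 with the smallest p included 4 that were higher. Ppp1r3c, a subunit that brings protein phosphatase to glycogen, measured 95.5, 78.7 and 99.4 CPM after vehicle and 140.2, 129.7 and 140.6 CPM after dexmedetomidine. The groups were well apart, at a log2 fold change of 0.59 (SE 0.13, edgeR adjusted p = 0.101) and 0.50 with the correction. Ppargc1a, which codes for the mitochondrial coactivator PGC-1alpha, was at 0.99 (SE 0.24, edgeR adjusted p = 0.109), from 104, 63.5 and 80.7 CPM to 134, 137 and 224 CPM, with 0.48 after the correction and 0.71 to 1.19 with 1 library left out.

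Pgm2l1, a glucose 1,6-bisphosphate synthase, and Rpe, an epimerase of the pentose phosphate pathway, were at 1.02 (SE 0.18) and 1.06 (SE 0.21), and at 0.46 and 0.42 with the correction. The 4 lower genes among the 8 were Gpd1, cytosolic glycerol 3-phosphate dehydrogenase, at -0.42 (SE 0.13), Pgls, a lactonase of the pentose phosphate pathway, at -0.35 (SE 0.12), the glycogen synthase kinase gene Gsk3a at -0.35 (SE 0.13) and the intracellular glucose transporter gene Slc2a8 at -0.39 (SE 0.15). With the correction they were at -0.11, -0.013, 0.073 and 0.070. Bsg, the chaperone that carries MCT1 and MCT4 to the membrane, was picked after its values were seen. It was at -0.36 (SE 0.15, edgeR adjusted p = 0.196) and at 0.048 with the correction.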

How the data were processed

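RNA of 6 apical heart samples, 1 µg each, was enriched for polyadenylated RNA and made into libraries with an NEBNext Ultra kit, per the labels. What the authors deposited is a single table of raw gene counts, with gene lengths in bases. The submitters' processing notes name HTSeq, Trim Galore and build mm9. Versions, aligner, annotation and strand setting were not given in the sources used here, so reads of overlapping or antisense genes cannot be told apart. The 5 summary rows (reads outside genes 2.33% to 3.63%, ambiguous 1.83% to 2.37%) stayed out of library sizes and tests. Of 37620 identifiers, 32897 matched a symbol and a transcript of GENCODE M21 (GRCm38), which gave GC content but no coordinates. Every 2 libraries differed by more than sampling noise (chi-square per degree of freedom 29.02 to 446).

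Genes were tested with edgeR 4.0.16 in R 4.3.3 (filterByExpr, TMM, robust quasi-likelihood F test, Benjamini-Hochberg over all 14738 genes, threshold 0.05). SE is the log2 fold change over the square root of F. CPM uses TMM-scaled library sizes. The GC and length correction fitted, for each library, splines with 5 degrees of freedom to log2 CPM deviations and entered them as offsets. Marker levels are mean log2 CPM with a prior count of 2. DESeq2 1.42.0 and limma 3.58.1 were alternatives, with other filters and scalings, leaving out single libraries, and the replicate number as a block. The fits were tested on simulated data.

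The listed genes, the further gene lists and the alternatives were chosen with earlier results of these data known. By rule, full values are given for genes without overlap or with an unadjusted p under 0.05, for the main isozyme of a step and for isozyme pairs, and further genes are the 8 with the smallest p. Proteins of the isozymes are not shown here.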

Additional observations from a re-analysis of the deposited data

How the results depend on the processing

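EdgeR called 0 of 14738 genes and 0 of the 34 listed genes, with 3172 genes at an unadjusted p under 0.05. Without a filter it called 406 genes and 1 of the list (Fbp2), DESeq2 called 1247 and 3, and limma-voom 2063 and 8. With 1 library left out edgeR called between 0 and 1251 genes and between 0 and 2 of the list, the highest without vehicle replicate 3, and 25 to 28 listed genes stayed below 0, with a median of -0.32 to -0.16. The labels do not say whether the replicate numbers pair the samples. Correlations of same-numbered deviations were -0.0547, 0.0361 and 0.153, against -0.187 to 0.15 for differently numbered ones. So few values cannot settle whether the samples were paired. With the replicate number as a block edgeR called 636 genes, 2 of the list (Slc16a3 and Fbp2), and 47 genes and 0 of the list when the block was joined to the GC correction. That correction turned 7 genes, Pfkp to -0.075, Pgam1 to 0.011, Eno1 to 0.092, Pkm to 0.050, Ldhb to 0.13, Ugp2 to -0.48 and Gbe1 to -0.17. With the block added, they were at -0.071, 0.020, 0.096, 0.050, 0.13, -0.46 and -0.17. It also turned the log2 ratios Hk2/Hk1 to -0.013, Pfkp/Pfkm to -0.00581 and Pfkl/Pfkm to 0.019, and it lowered the count of listed genes below vehicle without overlap from 13 to 5. Pfkp was at -0.00169 without mitochondrially encoded genes and Pfkfb3 at -0.14 in limma-voom. With 1 library left out, log2 fold changes crossed 0 for Pfkp (-0.045 to 0.098), Pfkfb1 (-0.041 to 0.31), Pfkfb3 (-0.12 to 0.24), Pfkfb4 (-0.00384 to 0.16), Phka1 (-0.10 to 0.00837), Phkg1 (-0.047 to 0.28) and Gyg (-0.062 to 0.10). The ratios Slc2a1/Slc2a4 (-0.15 to 0.21) and Pygb/Pygm (-0.015 to 0.085) crossed 0 too. So did the marker levels of nerve (-0.15 to 0.45), atrial (-0.071 to 2.06), macrophage (-0.16 to 0.00583), neutrophil (-0.17 to 0.85), skeletal muscle (-0.21 to 0.099) and smooth muscle and pericyte (-0.11 to 0.045) lists. The other ratios kept their direction with 1 library left out, and the cause of each shift was not tested. Depth limits Aldoc alone, which had too few counts to test.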
